A study of Prunus persica with 4 samples.

Results

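A total of 15 of the 186 miRNA candidates of peach carried, as their more abundant arm sequence, a sequence of 21 nt that started with uracil and passed the further limits given here. The candidates came from 1 small RNA library of Prunus persica cultivar Lovell, made from young leaves, young stems and flower buds that were mixed before sequencing. The library had no replicate and no treatment, and no value belongs to a single tissue. The 3 degradome libraries of the study, from young leaves, young stems and flowers, were not analysed here. The 15 candidates were chosen by their measured counts and sequences. The arm with the higher read count (the 5′ arm, 5p, where both were equal) had to hold 21 nt with a first uracil, and its sequence had to be the more abundant one of fewer than 4 candidates. A list of 38 candidates was also left out by number. Of the 27 candidates that shared the length and the first base, 23 were within the limit of fewer than 4, and leaving out the list reduced these to 15. Length, first base, arm and read count are therefore given as descriptions and without a test.

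miRNAs of plants are cut from a hairpin precursor by a Dicer-like enzyme, which releases a duplex of the guide strand and the strand of the opposite arm. Each strand of such a duplex usually ends in a short 3′ overhang. The guide is loaded into an Argonaute protein and directs the cleavage or the repression of messenger RNAs that pair with it, and a uracil at its first position is common among plant miRNAs. The partner strand, written miRNA*, does not usually become a guide, and small RNA libraries tend to hold few copies of it.

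The sequences of the 15 candidates were the following, given 5′ to 3′ with bases 2 to 8, the seed, in capitals and with the T of the deposited table written as U. They are shown in full because their likeness to each other and to conserved miRNAs is described next.
miRC108: uGAGCCAAgaaugacuugcug
miRC38: uUCCACAGcuuucuugaacgu
miRC87: uUCAAAGUaugagagugaggg
miRC128: uGAAGGUAgcugcacagccca
miRC163: uCACCGGAauugucaaaauga
miRC13: uGGGAUUGgguggguuuggua
miRC40: uGGUUAUAgauggcuuuggca
miRC43: uUAUUUUGuuauccccggcca
miRC47: uCCAGUGGaaggugagugcug
miRC160: uGUGUGGAaagagcgagacgu
miRC142: uCUCCCAAgccauugaucgcu
miRC6: uUCGGAAGauggacaaacaag
miRC138: uUGUGAUUagccuacaccacg
miRC175: uCCGGAGGugguugauuuuau
miRC145: uCUGAGUCagauuacugaaua

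No seed was shared between any of the 15, which held 15 distinct seeds. Over the 105 pairs, the closest were miRC13 and miRC40 with 7 mismatches over 21 nt. Each of the 15 sequences was listed for 1 candidate only. Of the precursors, scaffold 1 held 5, scaffold 6 held 3, scaffolds 5 and 7 held 2 each, and scaffolds 2, 3 and 4 held 1 each. On the plus strand there were 8 and on the minus strand 7. The list thus held 15 separate sequences from 15 separate loci. The choice shaped this in part, because it left out sequences that several candidates share. Those of miRC64 and miRC99 and of miRC104 and miRC106 were left out by number. Shared seeds were not counted over all candidates.

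Read counts were raw and covered a wide range. The 15 precursors held 586 reads, which was 3.73% of the 15705 reads on all candidates. Reads on a sequence that several candidates share enter that total at each of them, and the 186 candidates held 153 distinct sequences. None of the 15 shared its sequence with another candidate. Per precursor the lowest count was 7, the median 19 and the highest 136, beside a lowest of 5, a median of 13 and a highest of 1883 over all 186 candidates. The 3 most abundant precursors, miRC108, miRC38 and miRC87, held 300 of the 586 reads (51.2%). Fewer than 50 reads were counted for 11 of the 15 (73.3%), beside 145 of 186 candidates (78.0%). The count took part in the choice of the more abundant arm, and the candidates left out by number included miRC57, which had the 1883 reads.

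Intervals given with counts are exact 95% Poisson intervals, and those given with shares are exact 95% Clopper-Pearson intervals. Both cover counting error in 1 library only, since amplified reads are not independent molecules. The sequence of miRC108 had 136 reads (interval 114 to 161) and that of miRC38 had 103 (interval 84.1 to 125), and these intervals overlapped. They lay above those of all the others. miRC128 had 53 reads (interval 39.7 to 69.3), miRC87 had 52 (interval 38.8 to 68.2), miRC163 had 46 (interval 33.7 to 61.4), miRC13 had 40 (interval 28.6 to 54.5) and miRC40 had 30 (interval 20.2 to 42.8). Within this middle group each candidate overlapped with the next in order. Counts of 19 for miRC43, 19 for miRC160 and 18 for miRC47 followed, and then 14 for miRC142, 13 for miRC6, 10 for miRC138, 8 for miRC175 and 5 for miRC145. The interval of miRC145 ran from 1.62 to 11.7 reads and overlapped those of miRC175 and miRC138. The order among these low candidates was therefore not resolved at this depth.

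Over the 15 candidates, the sequence of the more abundant arm held 566 of 586 precursor reads, beside 15045 of 15705 over all candidates. Reads on the listed sequences of both arms numbered 577, and the 566 were 98.1% of these (interval 96.6 to 99.0%). Over all candidates this share was 97.4% (interval 97.1 to 97.6%). The arm was chosen by its higher count, so a majority on it was fixed in advance. The 10 candidates with no read listed on the opposite arm add none to it. In 7 of the 15 every read of the precursor was counted for a listed sequence, beside 95 of 186 over all candidates. It was so in 5 of the other 12 candidates of 21 nt with a first uracil and in 18 of the 36 with another first base. In miRC108 the sequence held 136 of 136 precursor reads (lower bound 97.3%), and in miRC38 103 of 108 (95.4%, interval 89.5 to 98.5%). The lowest shares belonged to candidates with few reads, namely 5 of 7 in miRC145 (71.4%, interval 29.0 to 96.3%) and 10 of 13 in miRC138 (76.9%, interval 46.2 to 94.96%). The choice of arm was closest in miRC145, where the 5p sequence had 5 reads and the 3p sequence 2.

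By arm, 11 of the 15 candidates (73.3%) had their sequence on the 5′ side of the hairpin, and miRC128, miRC160, miRC163 and miRC175 had it on the 3′ side. For the other 12 candidates of 21 nt with a first uracil it was on the 5′ side in 10, for the 36 candidates of 21 nt with another first base in 18, and over all candidates in 97 of 186 (52.2%). No test was run between these sets, because the arm took part in the choice and several of the other candidates shared a sequence.

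Reads on both arms were listed for 5 of the 15 candidates (33.3%), beside 46 of 186 over all candidates (24.7%) and 9 of the 36 candidates of 21 nt with another first base (25.0%). Among the other 12 candidates of 21 nt with a first uracil, both arms were listed for 6 of the 12. In each of the 5, the sequence of the opposite arm was also 21 nt long. The opposite strands are shown because they complete each duplex.
miRC38, 3p, 3 reads: aguucaagaaagcugugaaac
miRC87, 3p, 3 reads: cucagucucauacucugaauu
miRC138, 3p, 2 reads: ugguguaggcuaaucacaauc
miRC145, 3p, 2 reads: uucaguauuuugacucagaaa
miRC163, 5p, 1 read: auuuugacaauuccggugacg

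Of the 227 arm reads on these 5 candidates, 11 were on the less abundant arm (4.85%, interval 2.44 to 8.50%). The share was 2.83% in miRC38 (3 of 106, interval 0.588 to 8.05%), 5.45% in miRC87 (3 of 55, interval 1.14 to 15.1%) and 2.13% in miRC163 (1 of 47, interval 0.0539 to 11.3%). It was 16.7% in miRC138 (2 of 12, interval 2.09 to 48.4%) and 28.6% in miRC145 (2 of 7, interval 3.67 to 71.0%). All of these intervals overlapped. In the other 10 candidates no read was listed on the opposite arm, and a count of 0 allows up to 3 reads. This limit was 2.21% of the precursor reads in miRC108, the candidate with the most reads, and reached 33.3% in miRC175. The share of 4.85% comes only from candidates with at least 1 read on the opposite arm and is no measure of the level in the other 10.

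The ends of each duplex were read from the deposited structure. In miRC87, miRC138, miRC145 and miRC163 both strands ended in a 3′ overhang of 2 nt, which is the geometry of a Dicer product. In miRC38 the 3p strand had an overhang of 2 nt and the 5p strand one of 1 nt. Over all candidates with both arms listed, 41 of 46 had an overhang of 2 nt at both ends (89.1%), beside 4 of 5 here. The precursors of miRC163 and miRC87 are printed as examples, with the sequences of both arms in capitals and the loop between them in lower case.
miRC163: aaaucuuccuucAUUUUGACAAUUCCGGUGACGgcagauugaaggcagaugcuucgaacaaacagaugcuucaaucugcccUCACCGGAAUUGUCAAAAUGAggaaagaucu
miRC87: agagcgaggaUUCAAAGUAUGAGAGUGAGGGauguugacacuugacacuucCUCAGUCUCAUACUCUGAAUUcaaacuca

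The precursor of miRC163 had 112 nt and lay on scaffold_7:18921383-18921494, plus strand, with the 21-nt sequence from 18921464 to 18921484. All 21 bases were paired in the deposited structure. Its folding free energy, given as its size, was 65.8 kcal/mol or 58.8 kcal/mol per 100 nt, the largest per length among the 15. The precursor of miRC87 was the shortest, with 80 nt on scaffold_3:5388664-5388743, minus strand. Its sequence had 2 unpaired bases, at positions 5 and 15, and 18 nt lay between the sequence and the bases it paired with. miRC138, on scaffold_5:18324008-18324207, minus strand, had 200 nt, 1 unpaired base at position 20 and 138 nt between the sequence and the bases it paired with. miRC145, on scaffold_6:8360486-8360592, plus strand, had 107 nt and 1 unpaired base at position 12.

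miRC38 was the only candidate of the 15 within 2 mismatches of any of the 117 conserved miRNA sequences that the study listed, with the 5′ ends aligned. It differed at 1 base, G20U (the candidate has G at position 20, counted from the 5′ end, and the conserved sequence has U), from a sequence of the miR396 family. Members of this family are known from Arabidopsis to target transcripts of GROWTH REGULATING FACTOR transcription factors. The seed of miRC38 was that of the miR396 family, and no other candidate of the 15 shared a seed with a conserved sequence. Neither count was made over all candidates. The choice took part in both, because the candidates left out included sequences identical to conserved miR160, miR169 and miR399 sequences. The precursor of miRC38, of 122 nt on scaffold_1:39280922-39281043, minus strand, is printed with both arms in capitals.
conserved miR396: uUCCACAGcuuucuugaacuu
miRC38: uUCCACAGcuuucuugaacgu
precursor of miRC38: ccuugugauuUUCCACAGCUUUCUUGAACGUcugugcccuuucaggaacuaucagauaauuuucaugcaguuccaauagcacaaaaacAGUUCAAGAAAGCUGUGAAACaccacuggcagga

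One base of the sequence was unpaired in the deposited structure, at position 4, and 55 nt lay between the sequence and the bases it paired with. The opposite strand of miRC38 was also nearest to a sequence of the miR396 family, with 4 mismatches after a shift of 1 nt. miRC38 was listed as a candidate, with 108 reads on its precursor.

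miRC108, the most abundant of the 15, was related to the miR169 family, whose members are known from Arabidopsis to target subunits of the transcription factor NF-Y. With the ends aligned it had no conserved sequence within 2 mismatches. With a shift of 2 nt, 19 bases aligned with a conserved miR169 sequence at 2 mismatches, A10G and U20C, where positions are counted in miRC108 and the base of miRC108 comes first. Among all candidates the nearest was the sequence shared by miRC104 and miRC106, of the same length and the same seed, which differed at A10G, U20C and G21A.
miRC108: uGAGCCAAgaaugacuugcug
miRC104 and miRC106: uGAGCCAAggaugacuugcca
conserved miR169: agccaaggaugacuugccgg

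These loci lay near each other. The precursor of miRC108 had 114 nt on scaffold_4:16691539-16691652, plus strand, and those of miRC104, miRC105, miRC106 and miRC107 lay upstream on the same strand, at 45685, 42444, 26939 and 15319 nt. The sequences of miRC105 and miRC107 matched miRC108 with 3 mismatches after a shift of 1 nt. miRC108 had 136 reads on its precursor, beside 91 on miRC104, 91 on miRC106, 278 on miRC105 and 278 on miRC107. miRC105 and miRC107 shared a sequence, and its 261 reads are counted at both. The 78 reads on the sequence of miRC104 and miRC106 are likewise counted at both. No read was listed on the 3′ arm of miRC108, while the opposite arms of miRC104 and miRC106 had 10 reads each. Whether these 10 are the same reads at both was not examined. The sequence of miRC108 paired with its 3′ arm except at positions 1, 12 and 13. Its precursor, with the 5p sequence in capitals, was as follows.
miRC108: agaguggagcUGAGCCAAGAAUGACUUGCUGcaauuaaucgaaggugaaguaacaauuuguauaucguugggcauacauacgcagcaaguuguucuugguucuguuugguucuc

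For each of the other 13 candidates, the nearest conserved sequence lay at 8 to 12 mismatches with the ends aligned. The fewest were found for miRC138, with 8 mismatches to a miR171 sequence. With a shift of up to 2 nt, the fewest were 7, for miRC40 and miRC47. No name of a family was therefore given to them.

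In position, 3 of the 15 had another candidate within 10000 nt. This count was not made over all candidates, so it is not given as high or low. miRC13, on scaffold_1:29644635-29644734, plus strand, lay upstream of miRC14, miRC15, miRC16 and miRC17 on the same strand, at 1327, 2008, 3572 and 3785 nt. It had 40 reads, all on its 5p sequence, beside 165, 36, 531 and 520 on these neighbours. Positions 2, 6, 14 and 15 of the sequence were unpaired. Its sequence matched the one shared by miRC16 and miRC17 with 5 mismatches after a shift of 2 nt. The precursors of miRC16 and miRC17 overlapped on the same strand, and the 475 reads on their shared sequence are counted at both. miRC128, on scaffold_5:15528007-15528191, plus strand, lay 166 nt from miRC129, which followed on the same strand. miRC128 had 54 reads on its precursor and 53 on a 3p sequence of 21 nt, and miRC129 had 147 reads and a 5p sequence of 22 nt. Positions 2, 12 and 14 of the sequence of miRC128 were unpaired. The sequences of both candidates differed by 12 mismatches at the best shift.

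miRC160 overlapped another candidate. Its precursor of 100 nt, on scaffold_6:28212587-28212686, minus strand, lay wholly within that of miRC148 on the plus strand, which spans 28212500 to 28212769. miRC160 had 19 reads, all on the 3p sequence at 28212597 to 28212617, and miRC148 had 10 reads, all on a 3p sequence at 28212739 to 28212759. The listed sequences of the pair did not overlap and were 121 nt apart. The sequence of miRC160 was unpaired at positions 14, 18 and 19. Whether reads were assigned to the strand they came from was not tested.

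The remaining candidates had no other candidate within 10000 nt, and the nearest to miRC142 was miRC153 at 39897 nt. miRC40, on scaffold_1:44626138-44626338, minus strand, had 31 reads and a precursor of 201 nt. The size of its folding free energy per length was the smallest of the 15, at 20.6 kcal/mol per 100 nt. The sequence of miRC40 was unpaired at positions 1, 16 and 17. miRC6, on scaffold_1:7490986-7491336, plus strand, had 13 reads and the longest precursor, with 351 nt, of which 288 lay between its sequence and the bases it paired with. Its sequence had 1 unpaired base, at position 9. miRC43, on scaffold_1:46369776-46369886, minus strand, had 19 reads, and bases 3, 16 and 17 of its sequence were unpaired. miRC47, on scaffold_2:15502233-15502377, plus strand, had 19 reads, with 18 on the sequence and 1 elsewhere. It had the most unpaired bases, 5, of which 3 were at the 3′ end at positions 19, 20 and 21. miRC142, on scaffold_6:6010098-6010195, plus strand, had 14 reads. Bases 2, 3, 4 and 11 of its sequence were unpaired, the first 3 of them in the seed. miRC175, on scaffold_7:18241197-18241375, minus strand, had 9 reads, with 8 on its 3p sequence, and unpaired bases at positions 3 and 15.

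In the deposited structures the listed sequence of all 15 candidates paired only with the opposite arm, as it did in all 186 candidates. The authors called the candidates as hairpins, so this pairing is no independent result. The number of unpaired bases ran from 0 in miRC163 to 5 in miRC47, with a median of 3, and 14 of the 15 had at most 4, beside a median of 3 and 167 of 186 over all candidates. The seed was fully paired in 7 and had at least 1 unpaired base in 8. Bases 10 and 11, between which a target is cut, were both paired in all but miRC47 and miRC142. Neither the seed count nor this one was made over all candidates, so neither is given as a trait of the 15.

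The deposited folding free energies, given as their size, ran from 39.1 kcal/mol in miRC87 to 102.5 kcal/mol in miRC6, with a median of 47.7 kcal/mol, beside 47.4 kcal/mol over all candidates. The length of the precursor ran from 80 to 351 nt (median 114 nt), and in each the deposited precursor ended 10 nt outside the sequence. Precursor length therefore largely followed from the distance to the paired bases, which had a median of 51 nt and was over 100 nt in 5 candidates. Per 100 nt the median was 42.3 kcal/mol, beside 45.0 kcal/mol for the other 12 candidates of 21 nt with a first uracil, 42.0 kcal/mol for the 36 with another first base and 36.8 kcal/mol over all 186. These medians were not tested against each other.

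The 12 candidates that shared the length and the first uracil and are not among the 15 held 7 distinct sequences and 2218 reads. miRC167 with 1136 reads and miRC140 with 604 were the most abundant. A miR169 sequence was listed for 4 of them, the first number outside the limit of fewer than 4, with 18 reads at each of miRC65, miRC81, miRC82 and miRC102. A miR160 sequence was listed for miRC64 and miRC99, and miRC114 had a miR399 sequence. miRC112 had 149 reads and miRC104 and miRC106 had 91 each.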

How the data were processed

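The authors built 1 small RNA library from mixed tissues and deposited a table of candidates, 1 per hairpin. Clean reads of 18 to 30 nt were, per the methods, cleared of other non-coding RNAs and known miRNAs. Hairpins were then called by the authors with MIREAP at default parameters. The methods give a search for known miRNAs with up to 2 mismatches, while the paper's results give perfect matches only. Even so, the deposited candidates included sequences identical to conserved miR160, miR169 and miR399 sequences. miRC38 lay at 1 mismatch from a miR396 sequence. Values in the deposited table are raw counts of reads on a whole precursor and on its listed 5p and 3p sequences, which were not normalized. The folding free energies are the authors' values in kcal/mol, which the methods link to Mfold. The genome version behind the scaffold positions is not given in the sources used here, so no gene annotation was joined. Positions count from 1 as deposited.

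Every candidate of the part described is named. Candidates outside it are named where they overlap one, are near in sequence or position, or share the length and first base. The candidates and rules were chosen with earlier results of these data known. Pairing, overhangs and distances were read from the deposited structures. Conserved sequences came from the supplementary table, of which the sequences alone were used. Without a shift the 5′ ends were aligned and unmatched end bases counted as mismatches; with a shift of up to 2 nt, at least 19 aligned bases were compared. Precursors were refolded with RNAfold of ViennaRNA 2.7.2. Intervals were computed with scipy 1.17.1, under python 3.11.15 and numpy 2.4.6. The duplex and alignment code was tested on simulated data. No significance test was run, because there was 1 library and its readout chose the candidates.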

Additional observations from a re-analysis of the deposited data

How the results depend on the processing

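With no candidate left out by number, 23 candidates in place of 15 met the remaining limits. The share of arm reads on the more abundant arm was 98.1% over the 15 candidates and 95.2% over the 5 with both arms listed, since candidates with 1 arm add no read to the other. Allowing a shift of 2 nt brought the candidates near a conserved miRNA to 2, namely miRC38 and miRC108, in place of 1, and the number was 1 with limits of 1 or 3 mismatches and no shift. The other results stayed within the limits set for a change. Candidates with at least 2 reads on each arm were 4 in place of 5, the duplexes with overhangs of 2 nt numbered 4 in RNAfold structures too, the median folding energy was 46.9 kcal/mol in place of 47.7, and the median of unpaired bases was 3 in both. Single candidates moved more, since the number of unpaired bases changed in 5 of the 15 with RNAfold, to 6 in place of 3 in miRC43, 3 in place of 1 in miRC38 and 3 in place of 5 in miRC47, and the energy of miRC6 differed by 7.9 kcal/mol. In the RNAfold structure of miRC38 both overhangs were 1 nt. In the RNAfold structure of miRC43 the listed sequence no longer paired only with the opposite arm. The cause was not tested. The depth of 1 library limited the order of the candidates and the precision of the shares on the opposite arm. No paired analysis was possible because a single library gives no groups to pair.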

Other observations

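Beyond the first uracil, which the choice fixed, the 15 sequences were spread over the other bases. The second base was uracil, cytosine or guanine in 5 each and adenine in 0. Among the 7 distinct sequences of the other candidates of 21 nt with a first uracil it was adenine in 1, and among the 33 distinct sequences of 21 nt with another first base in 5. The last base was adenine in 6, guanine in 5, uracil in 4 and cytosine in 0 of the 15, and cytosine in 1 of those 7 and 7 of those 33. Base 19 was cytosine in 6 of the 15, in 4 of the 7 and in 10 of the 33. Between 7 and 12 of the 21 bases were guanine or cytosine, with a median of 9. The median was 11 in the other 12 candidates of 21 nt with a first uracil and 10 in the 36 with another first base. It was also 10 over all candidates, whose sequences differ in length. These counts are small and were looked at after the sequences had been read, and no test was run on them.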
